A study of Mus musculus with 48 samples.

Results

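Glutamate and GABA carry most fast excitation and inhibition in the brain, and the genes examined here encode the subunits of their receptors. AMPA (Gria), kainate (Grik) and NMDA (Grin) receptors are cation channels opened by glutamate, the delta receptors (Grid) belong to the same family, and the metabotropic receptors (Grm) signal through G proteins. GABA-A receptors (Gabr) are chloride channels assembled from alpha, beta and gamma or delta subunits, and the rho subunits form GABA-gated channels known best from the retina. The set was taken by gene symbol, and it held 45 of the 19752 genes with a symbol on the mRNA arrays. It comprised 4 AMPA, 5 kainate, 7 NMDA, 2 delta and 8 metabotropic receptor genes, 16 GABA-A subunit genes and 3 rho subunit genes.

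The 24 mRNA arrays came from male mice in 8 groups of 3 samples: cortex and whole brain, each from WT and Tg2576 animals aged 10 or 17 months. The WT mice were of strain C57BL/6J, and the strain of the others is labelled Tg(APPSWE)2576Kha. Tg2576 mice carry a human APP transgene with the Swedish double mutation, driven by a prion protein promoter, and are used as a model of amyloid deposition. The methods name a different supplier for each genotype, so that genotype and source of the animals cannot be told apart, and the labels do not say whether the 3 samples of a group are separate animals, so that p-values measure only the spread between these samples. The probe for mouse App, which was not shown to detect the human transgene, differed by -0.02, -0.02, 0.25 and -0.02 on the log2 scale between Tg2576 and WT in 10- and 17-month-old cortex and 10- and 17-month-old whole brain, with limma adjusted p from 0.431 to 0.944, and does not check the genotype labels.

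All values below are log2 intensities of 1 probe per gene after subtraction of the 75th percentile of the array, so that 0 is the 75th percentile and a difference of 1 is a doubling of intensity. A probe was called when its limma p, adjusted by Benjamini-Hochberg over all probes tested in the comparison, lay under 0.05. Levels of different genes are not compared, since each probe has its own response. In these tissue extracts, fewer cells of a type and less RNA per cell cannot be told apart. Between 34155 and 41087 of 55681 probes were well above background on each array.

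The arrays lay on 3 slides of 8. Slide 1 held all 10-month-old cortices and 2 of the 17-month-old WT cortices, slide 2 the other 17-month-old cortices, the 10-month-old WT whole brains and 1 of the 10-month-old Tg2576 whole brains, and slide 3 the remaining whole brains. In WT whole brain and in Tg2576 cortex each age had its own slide or slides, and there slide and age cannot be told apart within the 6 arrays. The tissue labels were set against marker genes. Of 10 cortical projection neuron genes, 2 were higher in cortex, among them Rorb by 0.42, while 7 of 8 striatal genes were higher in cortex too, with a median difference of 0.42. Over all probes 19.9% were called higher in cortex. The count of projection neuron genes lay near that share and does not check the tissue labels. The mean of 10 cerebellar genes lay between -2.60 and -1.80 in 11 of the 12 cortices, but at 0.04 in replicate 2 of the 17-month-old WT cortices. It lay between -2.27 and 0.79 in the whole brains, and replicate 2 of both the 10- and the 17-month-old Tg2576 whole brains, at -2.27 and -2.06, fell within the range of the cortices. Counts of members called for tissue and for age are also given without these 3 arrays, but not every value below is.

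Most subunits were readily measured and steady between replicates. Of the 45 genes, 39 were well above background on all 24 arrays, and among these the SD within groups ran from 0.06 to 0.39 with a median of 0.14. The 6 others were Gabra6, Gabre, Gabrp, Gabrq, Gabrr3 and Grm6. Gabre, which encodes the epsilon subunit, and Grm6, the metabotropic receptor of retinal ON bipolar cells, were well above background on no array. Gabrr3, a rho subunit, was well above background on 2 cortex arrays. Gabrp (pi subunit) was well above background on no 10-month-old Tg2576 cortex and no 17-month-old Tg2576 whole brain, and on 1 or 2 arrays of each other group. Gabrq (theta subunit) reached that mark on 1 to 3 arrays of every group.

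Gabra6 stood apart from all other members. It encodes the alpha6 subunit, known from cerebellar granule cells, and its SD within groups was 2.55, against 0.91 for Gabrq, the next highest. In 10-month-old WT whole brain Gabra6 was at -2.92, 0.29 and -0.50, and in 17-month-old WT whole brain at -1.80, 0.17 and 1.06. In 10-month-old Tg2576 whole brain it was at -3.88, -5.92 and 1.68, and in 17-month-old Tg2576 whole brain at -3.94, -7.10 and -2.04. The highest and the lowest of these arrays therefore differed by more than any group means did. The -5.92 and the -7.10 were readings not well above background, and both came from the 2 whole brains with cerebellar markers in the range of cortex.

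In cortex, Gabra6 was at -3.70, -6.40 and -6.74 in 10-month-old WT mice and at -7.40, 0.16 and -6.53 in 17-month-old WT mice. It was at -3.26, -6.48 and -5.11 in 10-month-old Tg2576 mice and at -8.01, -7.65 and -5.10 in 17-month-old Tg2576 mice. A single array in each cortex group was well above background. The value of 0.16 belonged to the WT cortex with high cerebellar markers, and on that array Pcp2, a Purkinje cell gene, was at 3.17 against -0.66 and -0.82 in the other replicates. Cbln3, a granule cell gene, was at -2.93 there and at -7.39 and -6.96 in the others.

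Across the 12 whole brains, Gabra6 and the mean of the cerebellar genes rose and fell together (Pearson's r = 0.921, permutation p = 2e-05, adjusted over 2 relations 4e-05; Spearman's rho = 0.937, permutation p = 5e-05, adjusted 1e-04; n = 12). Without the 2 arrays farthest from the median of the cerebellar mean, r was 0.907, and within the 8 whole brains of slide 3 it was 0.972. Both Tg2576 whole brains of low cerebellar markers remained in each of these values. Across the 12 cortices r was 0.827 (permutation p = 0.0051) and rho 0.594 (permutation p = 0.046), and r was 0.498 without the 2 farthest arrays, so that this relation rests on those arrays. Within the 8 cortices of slide 1, which include both of those arrays, r was 0.902, so that this value rests on them too. Both permutation tests were two-sided with 100000 resamples. The share of cerebellum in each piece of tissue is not given in the sources used here, and its part in the Gabra6 values was not tested beyond these relations.

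**Figure D1:**
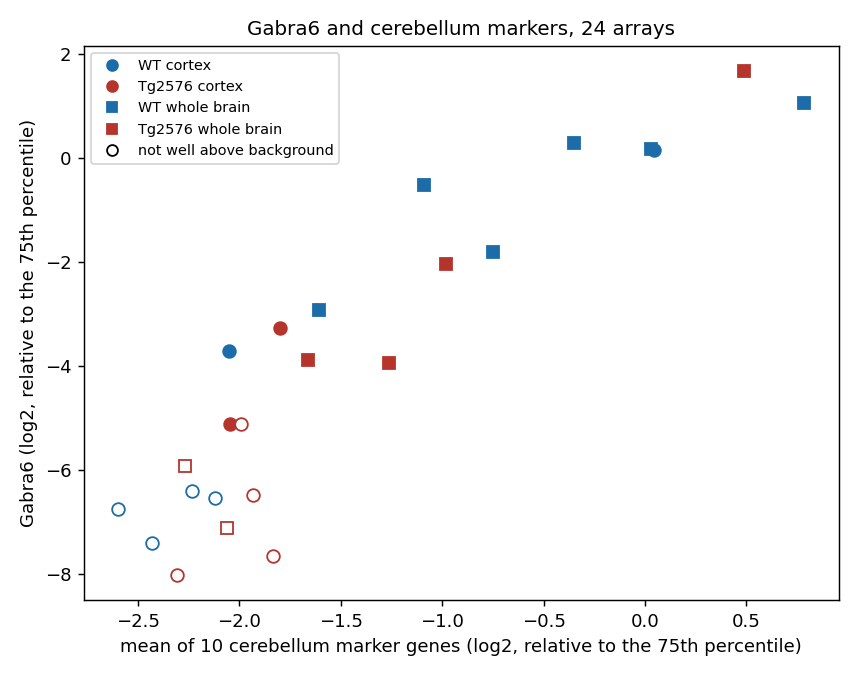
Level of Gabra6 on each of the 24 arrays (vertical axis, log2 relative to the 75th percentile of the array) against the mean of 10 cerebellar marker genes on the same array (horizontal axis, same scale), with circles for cortex, squares for whole brain, blue for WT, red for Tg2576 and open symbols where Gabra6 was not well above background. A WT cortex at 0.04 and 0.16 lies among the whole brains, and the Tg2576 whole brains at -2.27 and -2.06 lie among the cortices.

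Cortex was then compared with whole brain over all 24 arrays, as the mean of the 4 cortex groups minus the mean of the 4 whole brain groups. Of 42 members tested, 14 were called, 6 higher and 8 lower in cortex, which is 33.3% of the members against 37.5% of all 40484 probes tested. By direction, 19.9% of probes were called higher and 17.6% lower. No member had all cortices on 1 side of all whole brains, which 0.479% of probes did.

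Among the NMDA receptor genes, Grin1, the subunit that every NMDA receptor contains, was higher in cortex by 0.51 ± 0.05 (SE, limma adjusted p = 3.18e-06). Its level ranged from -2.33 to -1.36 in cortex and from -2.77 to -1.995 in whole brain, with medians of -1.82 and -2.22. The difference was positive in each of the 4 pairs of groups of the same genotype and age, between 0.11 and 0.76, and the 3 cortices lay above the 3 whole brains in 3 of the pairs. The GluN3 subunits, which bind glycine rather than glutamate, went the other way. Grin3a was lower in cortex, at -0.49 (cortex minus whole brain, SE 0.07), with no overlap in any of the 4 pairs, and Grin3b at -0.74 (SE 0.15), with no overlap in 3 pairs.

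Of the kainate receptor genes, Grik3 was higher in cortex by 0.28 (SE 0.05) without overlap in any pair, and Grik2 by 0.27 (SE 0.06), whereas Grik1 was lower, at -0.22 (SE 0.04). A second probe for Grik3, well above background on 20 arrays, differed by 0.65, and a second probe for Grik2 by 0.42, both called. Among metabotropic receptors, Grm2, which lowers cyclic AMP, was higher in cortex by 0.12 (SE 0.03).

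The GABA-A subunits split as well. Gabra4 was higher in cortex by 0.16 (SE 0.06). Gabrg1 was lower, at -0.41 (SE 0.09), as were Gabrb1 at -0.16 (SE 0.04) and Gabrp at -0.53 (SE 0.18), although a second probe for Gabrg1 differed by only -0.08 (adjusted p = 0.643). Gabrp was well above background on 4 of 12 cortices and 5 of 12 whole brains, so that its difference is largely between dim readings. Gabra6 was among the 8 called lower, at -3.44, and at -4.78 without the 3 arrays of unusual cerebellar marker level. It was tested only through its levels in whole brain, since 1 of 3 arrays was well above background in each cortex group, so that neither value is a measured size of the difference. Without those 3 arrays 15 members were called, and of the 14 only Gabra4 was not among them (0.17, adjusted p = 0.067). None of the AMPA, delta or rho subunits was called by its reported probe. A second Gria4 probe was called higher, at 0.12 (adjusted p = 0.0146), against -0.09 by the reported probe. Those for Gria2 and Gria3 were not called. Gabra3 was at -0.03 by its reported probe and at 0.35 by its second probe (adjusted p = 0.00241), and Grin2a at 0.16 and 0.63 (adjusted p = 1.51e-05). Second probes were also called for Gabrg3 at 0.55 (adjusted p = 0.000334), Grm4 at 0.27 (0.00942) and Grin2b at 0.19 (0.0361). Their reported probes, at 0.01, 0.11 and 0.02, were not. Of the other Grm5 probes, 1 was called at 0.20 (0.0019) and 1 was not, at 0.03.

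The tissue calls did not last when the slide entered the model. With the slide as a block no member and no probe of the array was called. Slide 1 held only cortices and slide 3 only whole brains. The tissues met on slide 2 alone, where the cortices were of 17 and the whole brains of 10 months. Tissue and slide can therefore hardly be told apart, and the block raised the SE of Grin1 from 0.05 to 0.16. The loss of calls does not show which of the 2 the differences follow. Grin1 kept its size, at 0.48 (SE 0.16), and so did Grik3, at 0.27 (SE 0.16), while Grik2 turned to -0.20 (SE 0.13) and Grin3a to 0.14 (SE 0.17). Gabrb1 shrank to -0.02 (SE 0.11) and Gabrp to -0.08 (SE 0.52). The plot of cortex against whole brain sets the estimates with and without the block side by side.

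**Figure D2:**
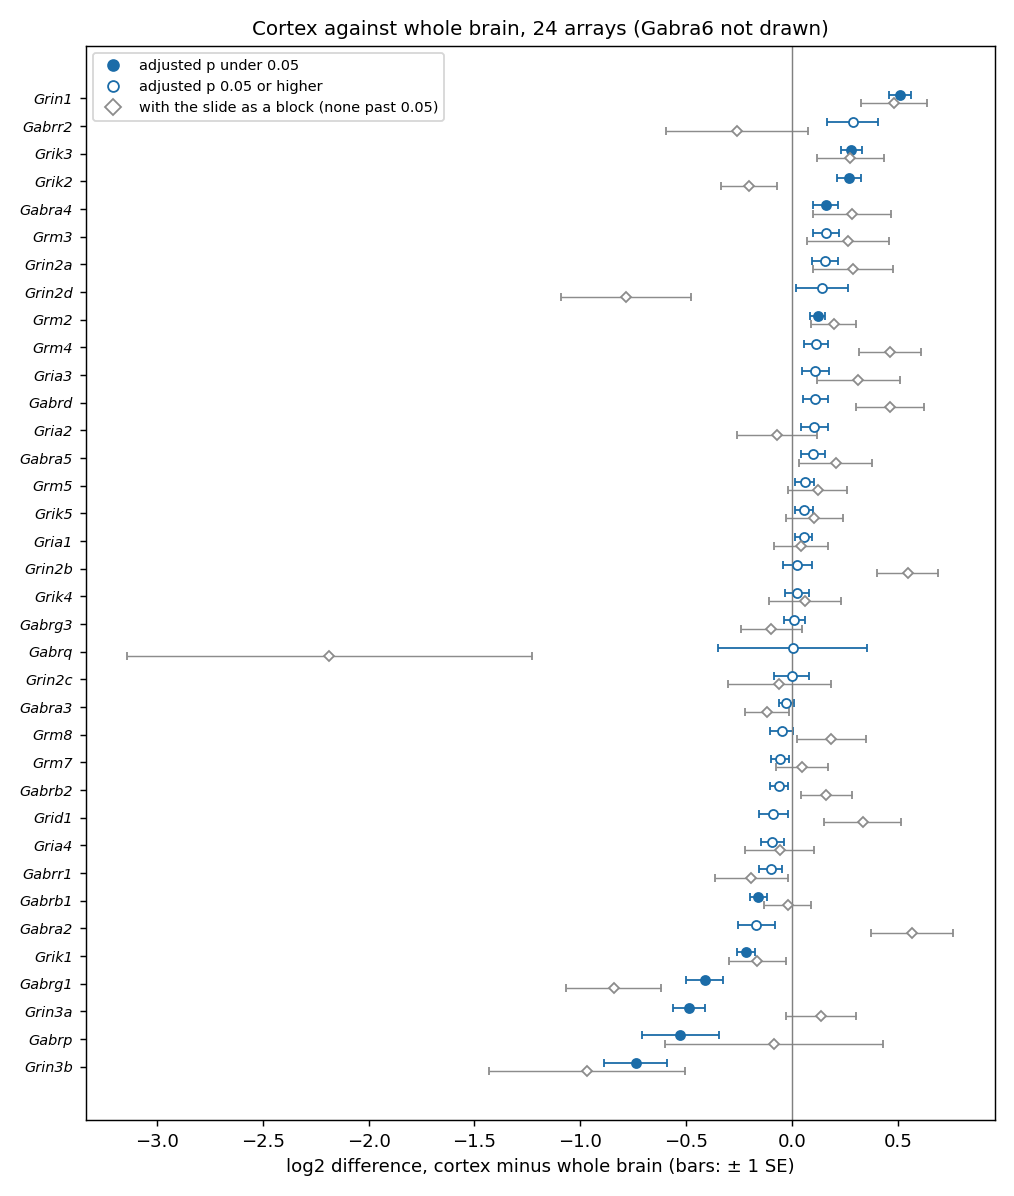
Difference between cortex and whole brain (horizontal axis, log2, positive where cortex was higher) for 36 of the 42 members tested, Gabra6 among others being left out, for its scale. Blue circles are the fit to 24 arrays, filled where called, and grey diamonds the fit with the slide as a block, both with bars of 1 SE: Grin1 is at 0.51 and 0.48, whereas Grik2 is at 0.27 and -0.20.

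The neighbouring parts of glutamate and GABA transmission were described in the same comparison. Of 9 genes for glutamate supply and uptake, 2 were lower in cortex, namely Slc17a6, the vesicular glutamate transporter of subcortical neurons, at -0.77, and Slc1a6, the glutamate transporter of Purkinje cells, at -0.43. Of 7 genes for GABA supply and uptake, 2 were lower, among them Slc6a13 at -0.26. Of 16 auxiliary subunits of ionotropic receptors, 6 were higher and 1 lower, with Gsg1l, Shisa9 and Cacng3 higher by 0.26, 0.21 and 0.21. Of 19 receptor scaffold genes, 5 were higher and 1 lower, with Homer1, Shank2 and Dlg4 higher by 0.23, 0.23 and 0.22. Gabbr1, 1 of the 2 GABA-B receptor genes, was higher by 0.08. The median differences of these lists, from -0.09 to 0.10, stood beside 0.01 for all probes.

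Age was compared within each genotype and tissue, 17-month-old against 10-month-old mice, 3 arrays each. Over the 4 comparisons 23 of the 45 members were called at least once, 12 of them higher and 11 lower at 17 months, and none was called in both directions. Every kainate and delta subunit was called at least once, together with 5 of 7 NMDA, 3 of 4 AMPA, 2 of 8 metabotropic and 6 of 16 GABA-A subunits and no rho subunit. Grin2d was the only member called in all 4 comparisons, and Grik3 was called in 3. The share of all probes called at least once, or in all 4 comparisons, is not given here. These counts therefore have no share over all probes beside them, and the shares within each comparison follow.

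In WT cortex 2 of 40 members tested were called (5%), beside 4.56% of all probes, and both were higher at 17 months. In WT whole brain 17 of 42 were called (40.5%, 10 higher and 7 lower), beside 27.8% of probes. In Tg2576 cortex 6 of 41 were called (14.6%, 4 higher and 2 lower), beside 10.3% of probes, and in Tg2576 whole brain 11 of 41 (26.8%, 5 higher and 6 lower), beside 12.1% of probes. Over all probes 2.94% rose and 1.62% fell in WT cortex, 12.7% and 15.2% in WT whole brain, 5.6% and 4.69% in Tg2576 cortex, and 6.57% and 5.54% in Tg2576 whole brain. Groups of the 2 ages did not overlap for 17, 22, 18 and 25 members, against 33.5%, 48.9%, 38.2% and 38.6% of probes. Leaving out 1 array of 6 at a time brought the calls down to 0 in WT cortex, to between 10 and 15 in WT whole brain, to between 0 and 2 in Tg2576 cortex and to between 0 and 6 in Tg2576 whole brain. Without the 3 arrays of unusual cerebellar marker level no member was called in WT cortex or in Tg2576 whole brain, where the 11 differences kept their direction.

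**Figure D3:**
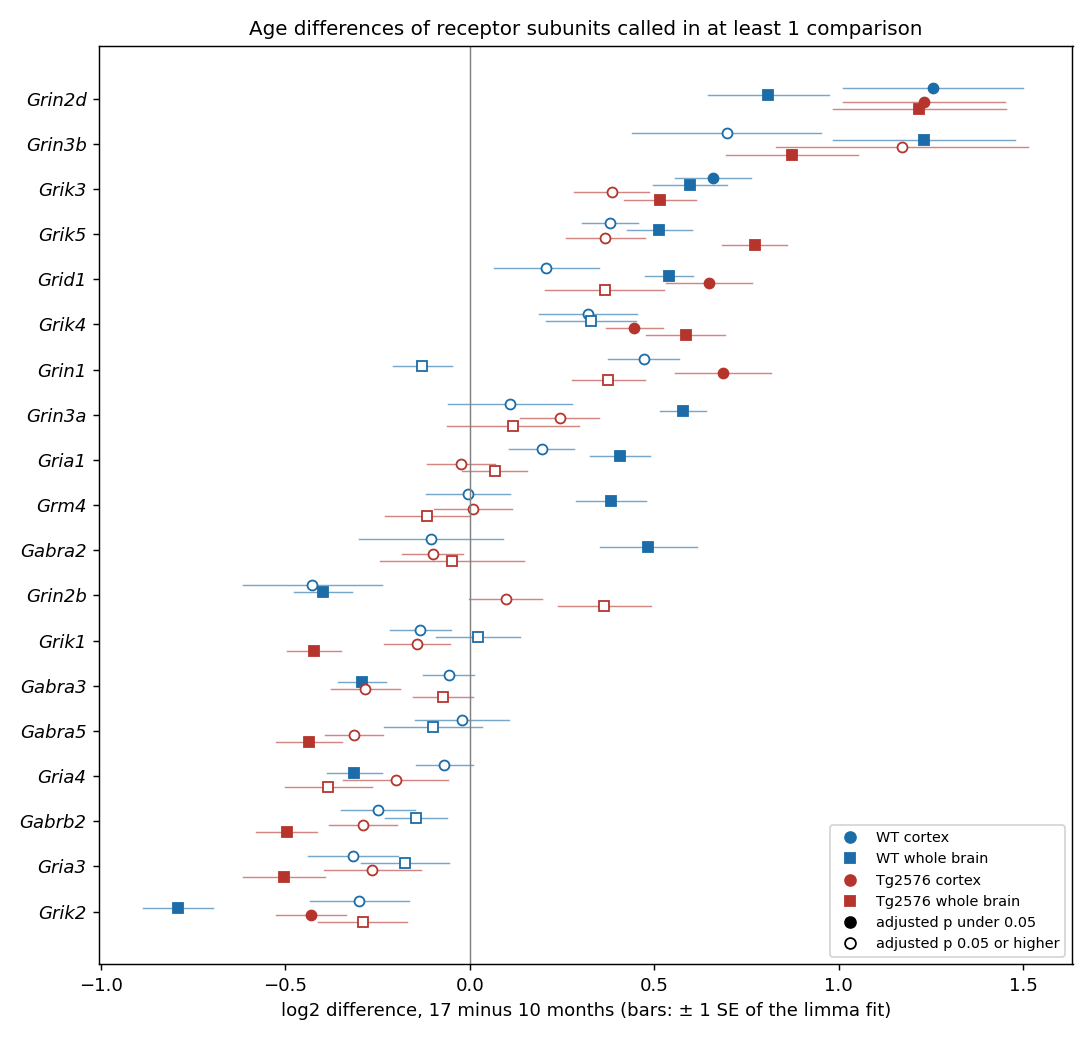
Difference between 17 and 10 months (horizontal axis, log2, positive where 17 months was higher) for 19 of the 23 members called in at least 1 of the 4 comparisons, ordered by their mean difference. Circles are cortex, squares whole brain, blue WT, red Tg2576, filled symbols are called, and bars are 1 SE: Grin2d lies between 0.81 and 1.26 in all 4 comparisons and Gabrb2 between -0.50 and -0.15.

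Grin2d encodes an NMDA receptor subunit whose channels close slowly and which is expressed in interneurons, thalamus and brainstem. In WT cortex Grin2d was at -4.05, -4.09 and -4.62 at 10 months and at -2.99, -2.61 and -3.40 at 17 months, a difference of 1.26 ± 0.24 (SE, limma adjusted p = 0.0482). In Tg2576 cortex it was at -3.67, -3.74 and -4.35 at 10 months and at -2.83, -2.38 and -2.85 at 17 months, a difference of 1.23 ± 0.22 (adjusted p = 0.0295). Both cortex comparisons thus separated the ages without overlap, with folds of 2.39 and 2.35.

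In WT whole brain Grin2d was at -3.53, -3.97 and -3.92 at 10 months and at -2.98, -3.23 and -2.77 at 17 months, a difference of 0.81 ± 0.16 (adjusted p = 0.0175). In Tg2576 whole brain it was at -3.89, -4.84 and -4.52 at 10 months and at -3.11, -3.24 and -3.24 at 17 months, a difference of 1.22 ± 0.24 (adjusted p = 0.0295). All 12 of the older samples lay above all 12 of the younger ones. With all 24 arrays in 1 model and the slide as a block, the Grin2d differences were 1.45, 1.60, 1.83 and 1.48 in WT cortex, WT whole brain, Tg2576 cortex and Tg2576 whole brain, each called (adjusted p = 0.000835, 0.0317, 0.0476 and 0.000367). Without the WT cortex of high cerebellar markers its difference was 1.06 (adjusted p = 0.088), and without both Tg2576 whole brains of low cerebellar markers 1.03 (adjusted p = 0.176). Over all alternatives and arrays left out, the Grin2d differences kept their direction. Their smallest values were 0.51, 0.47, 0.73 and 0.47 in WT cortex, WT whole brain, Tg2576 cortex and Tg2576 whole brain. They passed in 8 of 18, 15 of 17, 9 of 17 and 11 of 19 settings.

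The other NMDA subunits moved less evenly. Grin3b rose in WT whole brain by 1.23 (SE 0.25) and in Tg2576 whole brain by 0.87 (SE 0.18), and was at 0.70 and 1.17 in WT and Tg2576 cortex without passing the threshold (adjusted p = 0.158 and 0.0785). Grin1 rose in Tg2576 cortex by 0.69 (SE 0.13), where it went from between -2.33 and -1.95 to between -1.64 and -1.36. The Grin1 differences were 0.47, -0.13 and 0.38 in WT cortex, WT whole brain and Tg2576 whole brain, with adjusted p of 0.0515 in the first and 0.0587 in the last. Grin3a rose by 0.58 (SE 0.06) in WT whole brain, where the slide block left 0.03, and was at 0.11, 0.24 and 0.12 in WT cortex, Tg2576 cortex and Tg2576 whole brain without passing. Grin2b, the subunit that predominates in the young forebrain, fell in WT whole brain by 0.40 (SE 0.08), from 2.79, 2.88 and 2.77 to 2.29, 2.47 and 2.48, but its second probe gave -0.01 there (adjusted p = 0.961). Grin2a, the partner that joins NMDA receptors as the brain matures, was at -0.19 in WT whole brain (adjusted p = 0.136), and its second probe fell there by 0.83 (adjusted p = 0.00522).

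Kainate receptors are built from low-affinity subunits (Grik1 to Grik3) and from high-affinity subunits (Grik4 and Grik5) that need a low-affinity partner. Grik3 was at 1.35, 1.28 and 1.49 in 10-month-old and at 2.16, 1.88 and 2.06 in 17-month-old WT cortex, a rise of 0.66 (SE 0.10, adjusted p = 0.0359). It rose by 0.60 in WT whole brain and by 0.52 in Tg2576 whole brain, and was higher by 0.38 in Tg2576 cortex without passing (adjusted p = 0.0624). The second, dimmer Grik3 probe gave 0.27, -0.20, 0.05 and 0.69 in WT cortex, WT whole brain, Tg2576 cortex and Tg2576 whole brain, none called, so that the rise of Grik3 rests on 1 probe.

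Grik5 rose by 0.51 (SE 0.09) in WT whole brain and by 0.77 (SE 0.09) in Tg2576 whole brain, where its 3 younger samples lay between 2.96 and 3.02 and its 3 older ones between 3.69 and 3.90. In cortex Grik5 was higher by 0.38 in WT and 0.37 in Tg2576 mice, without overlap of the ages, at adjusted p of 0.0508 and 0.0772. Grik4 rose by 0.45 in Tg2576 cortex and 0.58 in Tg2576 whole brain. Grik2 went the opposite way, falling by 0.79 (SE 0.09) in WT whole brain, from between -0.63 and -0.35 to between -1.40 and -1.25, and by 0.43 (SE 0.09) in Tg2576 cortex. These were comparisons in which slide and age cannot be told apart, and the slide block left -0.51 and -0.01. A second Grik2 probe fell in both, by 0.50 and 0.73 (adjusted p = 0.018 and 0.0204). Grik1 fell by 0.42 (SE 0.07) in Tg2576 whole brain, from between -0.06 and 0.01 to between -0.50 and -0.40.

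Among AMPA receptor genes, Gria1 rose by 0.41 (SE 0.08) in WT whole brain, Gria4 fell there by 0.31 (SE 0.07), and Gria3 fell in Tg2576 whole brain by 0.50 (SE 0.11). A second Gria3 probe gave only -0.11 there (adjusted p = 0.482), so that this fall rests on 1 probe. Gria2, whose edited subunit keeps calcium out of the channel, was not called by its reported probe, at -0.27, -0.11, -0.02 and -0.30 in WT cortex, WT whole brain, Tg2576 cortex and Tg2576 whole brain, but its second probe was at -0.39, -0.44, -0.49 and -0.53 in the same order and was called in WT whole brain (adjusted p = 0.0114), Tg2576 cortex (0.0364) and Tg2576 whole brain (0.0182). The delta receptor Grid1 rose by 0.54 in WT whole brain and by 0.65 in Tg2576 cortex. In both of these comparisons slide and age cannot be told apart. The slide block over 24 arrays left a Grid1 difference of 0.28 in each (limma adjusted p = 0.526 and 0.603). Of the metabotropic receptors, Grm4 rose in WT whole brain by 0.38, where the slide block over 24 arrays left 0.07 (adjusted p = 0.869). A second Grm4 probe gave 0.32 there (adjusted p = 0.199).

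On the inhibitory side, 5 of the 6 GABA-A subunits called with age were lower and 1 was higher at 17 months. This count pools the comparisons, has no share over all probes beside it, and does not show a fall of the class. No GABA-A subunit was called in WT cortex. Gabrb2, a beta subunit found in many of the GABA-A receptors of the adult brain, fell by 0.50 in Tg2576 whole brain (SE 0.08, adjusted p = 0.0224). It was lower without overlap of the ages in the other comparisons too, at -0.25, -0.15 and -0.29 in WT cortex, WT whole brain and Tg2576 cortex, which did not pass. With the slide block over 24 arrays the Gabrb2 difference in Tg2576 whole brain was -0.53 (adjusted p = 0.00065). Gabra6 showed no called difference with age, at 0.85 in WT whole brain and -1.65 in Tg2576 whole brain (adjusted p = 0.565 and 0.641).

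Gabra5, known from extrasynaptic receptors of the hippocampus, fell by 0.43 in Tg2576 whole brain, and Gabra3 fell by 0.29 in WT whole brain. With the slide block over 24 arrays these were -0.43 and -0.20 (limma adjusted p = 0.0218 and 0.407). A second Gabra3 probe was at -0.94 in WT whole brain without the block (limma adjusted p = 0.00497). Of the 4 genes that lie close together on chromosome 5, Gabrg1, Gabra2, Gabra4 and Gabrb1, only Gabra2 was called, higher by 0.48 in WT whole brain. That value became -0.20 with the slide block over 24 arrays. Gabrd, the delta subunit of extrasynaptic receptors, was higher at 17 months in all 4 comparisons, by 0.15 to 0.24, and was not called, and with the slide block it was at -0.17 in WT whole brain. In all comparisons together 13 members were tested and never called by their reported probe, among them Gria2, Grin2a, Grin2c, Grm3, Grm5, Grm7, Grm8, Gabrd, Gabrg3, Gabrq, Gabrr1 and Gabrr2. Gabre, Gabrr3 and Grm6 were too dim to be tested.

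**Figure D4:**
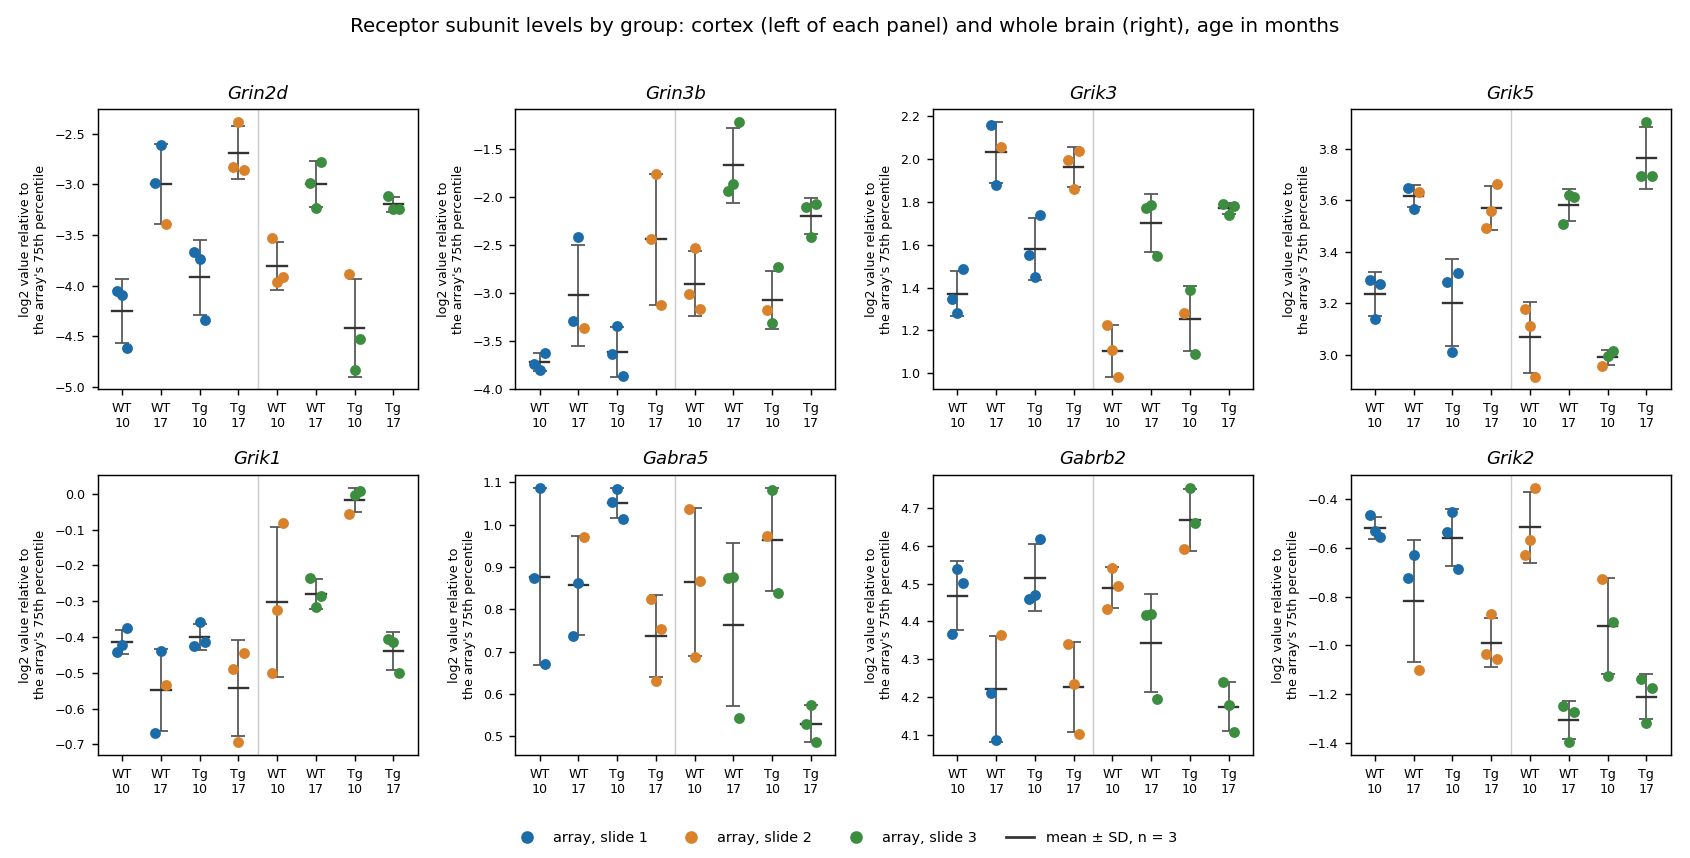
Level of 8 members on every array (vertical axes, log2 relative to the 75th percentile of the array) by group, with cortex left and whole brain right of the line in each panel. Points are coloured by slide, horizontal lines are means and bars SDs of 3 arrays: all 12 samples of 17 months lie above all 12 of 10 months for Grin2d, and Grik5 in Tg2576 whole brain goes from between 2.96 and 3.02 to between 3.69 and 3.90.

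The promoters of the members called in the same direction in at least 2 age comparisons are shown, as far as RefSeq start sites were listed for them, because each of these genes was called more than once. Each runs from 250 bases before to 50 bases after the start site, 5' to 3' on the strand of the gene, in GRCm38.p6, with GC boxes (GGGCGG or its reverse complement CCGCCC, to which Sp1 family factors bind) in capitals. Grik2 was called lower and the others higher at 17 months.
Grin2d (chr7:45866632-45866931, minus strand): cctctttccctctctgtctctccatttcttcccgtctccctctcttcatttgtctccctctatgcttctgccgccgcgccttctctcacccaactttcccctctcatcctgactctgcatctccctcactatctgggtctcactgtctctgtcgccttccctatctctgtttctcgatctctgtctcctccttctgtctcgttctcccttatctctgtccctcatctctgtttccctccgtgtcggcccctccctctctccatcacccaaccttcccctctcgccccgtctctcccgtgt
Grin3b (chr10:79970474-79970773, plus strand): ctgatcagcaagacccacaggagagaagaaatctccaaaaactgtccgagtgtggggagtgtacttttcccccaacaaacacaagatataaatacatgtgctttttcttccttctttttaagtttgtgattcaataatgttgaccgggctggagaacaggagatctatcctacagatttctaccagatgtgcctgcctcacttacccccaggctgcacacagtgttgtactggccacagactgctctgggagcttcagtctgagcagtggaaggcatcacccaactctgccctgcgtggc
Grik3 (chr4:125490446-125490745, plus strand): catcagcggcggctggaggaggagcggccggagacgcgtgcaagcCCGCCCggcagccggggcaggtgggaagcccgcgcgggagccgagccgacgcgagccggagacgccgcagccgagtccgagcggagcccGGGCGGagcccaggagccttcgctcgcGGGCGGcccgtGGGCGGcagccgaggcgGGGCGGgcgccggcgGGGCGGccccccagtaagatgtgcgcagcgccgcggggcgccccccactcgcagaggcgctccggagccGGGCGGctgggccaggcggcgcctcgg
Grik4 (chr9:42944322-42944621, minus strand): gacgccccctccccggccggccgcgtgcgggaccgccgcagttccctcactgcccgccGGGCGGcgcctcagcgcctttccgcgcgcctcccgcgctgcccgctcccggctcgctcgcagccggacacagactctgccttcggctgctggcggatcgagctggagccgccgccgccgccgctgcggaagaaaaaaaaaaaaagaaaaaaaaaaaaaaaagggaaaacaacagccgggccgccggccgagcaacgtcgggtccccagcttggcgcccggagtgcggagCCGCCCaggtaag
Grik5 (chr7:25072320-25072619, minus strand): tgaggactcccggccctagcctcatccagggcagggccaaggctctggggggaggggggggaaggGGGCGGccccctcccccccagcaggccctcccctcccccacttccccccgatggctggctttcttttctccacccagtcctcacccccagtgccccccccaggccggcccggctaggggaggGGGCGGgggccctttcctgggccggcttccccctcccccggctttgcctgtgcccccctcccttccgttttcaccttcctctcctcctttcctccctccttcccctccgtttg
Grik2 (chr10:49788705-49789004, minus strand): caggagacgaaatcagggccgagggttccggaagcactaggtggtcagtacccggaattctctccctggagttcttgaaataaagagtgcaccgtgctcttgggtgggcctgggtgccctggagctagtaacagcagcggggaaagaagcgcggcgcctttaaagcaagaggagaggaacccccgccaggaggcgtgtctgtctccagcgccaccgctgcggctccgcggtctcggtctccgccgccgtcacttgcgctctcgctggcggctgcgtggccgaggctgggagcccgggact

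The Grik3 window held 7 GC boxes and was 82.0% G or C. Grik4 and Grik5 held 2 each at 70.0% and 72.0%, while Grin2d (56.0%), Grin3b (48.3%) and Grik2 (64.7%) held none. Over all 32851 promoters of the same length 35.7% held at least 1 such box and their median was 52.7% G or C. For the 30 members with a listed promoter, the median G or C share was 70.0% for the 7 genes called higher at least once, 56.7% for the 5 called lower and 58.4% for the 18 not called, and 5, 1 and 10 of them held a GC box. These shares describe the sequences and were not tested.

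The lists of partner genes were followed over age as well. Beside them, 2.94%, 12.7%, 5.6% and 6.57% of all probes rose in WT cortex, WT whole brain, Tg2576 cortex and Tg2576 whole brain. In the same order 1.62%, 15.2%, 4.69% and 5.54% fell. The median difference of all probes lay between -0.07 and 0.07 in each comparison, under every setting. Slc32a1, the transporter that loads GABA into vesicles, rose in all 4 comparisons, by 0.78, 0.50, 0.51 and 0.73 in WT cortex, WT whole brain, Tg2576 cortex and Tg2576 whole brain. Of the 7 genes of GABA supply and uptake 1, 3, 2 and 1 rose in these comparisons and none fell. Gad1, which makes GABA, rose by 0.46 in WT whole brain. Of the 9 genes of glutamate supply and uptake, 0, 1, 1 and 1 rose, which were Slc1a6 by 0.72 in WT whole brain and 0.71 in Tg2576 cortex and Slc17a7, the vesicular glutamate transporter of cortical neurons, by 0.50 in Tg2576 whole brain. Gabbr2 of the GABA-B receptor rose by 0.66 in Tg2576 whole brain.

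Of the 16 auxiliary subunits, 2, 6, 1 and 7 rose and 0, 0, 0 and 1 fell in the same order, with median differences of 0.37, 0.32, 0.17 and 0.38. Cacng2, which brings AMPA receptors to the membrane, rose by 1.05 in WT whole brain and 0.61 in Tg2576 whole brain. Cacng4 rose by 0.71 in WT cortex and 0.77 in Tg2576 whole brain, and Neto2, an auxiliary subunit of kainate receptors, fell by 0.67 in Tg2576 whole brain. Of the 19 scaffold genes, 1, 4, 1 and 3 rose and 1, 2, 0 and 0 fell. Nlgn2, the neuroligin of inhibitory synapses, rose by 0.76 in WT cortex, 1.08 in WT whole brain and 0.98 in Tg2576 whole brain, and Shank1, a scaffold of excitatory synapses, by 0.88, 0.68 and 1.16 in WT whole brain, Tg2576 cortex and Tg2576 whole brain.

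Other markers moved beside these age differences. Over all probes 2.94%, 12.7%, 5.6% and 6.57% rose in WT cortex, WT whole brain, Tg2576 cortex and Tg2576 whole brain. The mean of 8 interneuron genes went from between 4.31 and 4.43 to between 4.12 and 4.27 in WT cortex. It went from 4.27 to 4.31 to 4.34 to 4.36 in WT whole brain, and its ranges overlapped in both Tg2576 tissues. The striatal, choroid plexus and microglial lists are not reported here. Of 8 neuronal genes 2, 3, 4 and 2 rose and none fell in WT cortex, WT whole brain, Tg2576 cortex and Tg2576 whole brain, and of 6 thalamic genes 0, 4, 1 and 2 rose, with median differences of 0.52, 0.55, 0.71 and 0.45. The median difference of the cerebellar genes was 0.82 in WT cortex, -0.09 in Tg2576 cortex and -0.12 in Tg2576 whole brain, where none was called, and 1.001 in WT whole brain, where 1 of 10 rose. Of 7 hindbrain genes with a probe, 4 were tested in WT whole brain and 2 of these rose, with a median difference of 2.64. On single arrays 1 to 4 of the 7 were well above background at 10 months and 4 to 5 at 17 months. Genes could thus be tested through the older group alone, so that this median is not a measured size of the difference. Of 6 endothelial genes 1, 3, 2 and 3 rose and 0, 0, 1 and 0 fell in the order above, with median differences of 0.10, 0.49, 0.24 and 0.42. Of 6 astrocyte genes 0, 2, 2 and 2 rose, of 7 oligodendrocyte genes 0, 2, 1 and 2 rose, and of the 10 cortical projection neuron genes 0, 4, 0 and 3 rose, and none of these fell. The 8 olfactory bulb genes were lower at 17 months in Tg2576 cortex with a median difference of -1.90 and none called. Their part in the receptor differences was not tested.

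Tg2576 mice were compared with WT mice of the same age and tissue to ask whether the transgene goes with other receptor levels. No member was called in any of the 4 comparisons by limma, and no probe of the array was (0% of 39629, 38889, 38109 and 36980 probes). At an unadjusted p under 0.05 there were 4 of 40, 0 of 41, 7 of 42 and 11 of 41 members in 10- and 17-month-old cortex and 10- and 17-month-old whole brain, beside 9.95%, 9.32%, 11.4% and 13% of probes. The methods' t-test, all 24 arrays in 1 model and every other alternative also called 0 members in each.

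Grin2b, the NMDA receptor subunit described above, had the lowest adjusted p in 10-month-old cortex. In 10-month-old cortex Grin2b was at 3.01, 2.92 and 3.02 in WT and at 2.52, 2.39 and 2.70 in Tg2576 mice, a difference of -0.45 ± 0.10 (SE, limma adjusted p = 0.411). In 10-month-old whole brain it was at 2.79, 2.88 and 2.77 in WT and at 2.42, 2.60 and 2.52 in Tg2576 mice, a difference of -0.30 ± 0.08 (adjusted p = 0.431). In 17-month-old whole brain the order was the opposite, with 2.29, 2.47 and 2.48 in WT and 2.64, 3.03 and 2.97 in Tg2576 mice, a difference of 0.46 ± 0.12 (adjusted p = 0.342). The genotypes did not overlap in these 3 comparisons, and in 17-month-old cortex they did, with 2.30, 2.39 and 2.99 against 2.62, 2.58 and 2.70. A second Grin2b probe gave differences of -0.10, 0.01, 0.05 and 0.24 in 10- and 17-month-old cortex and 10- and 17-month-old whole brain, none called.

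Other members whose genotypes did not overlap and whose unadjusted p lay under 0.05, named by size, did not pass the adjusted threshold either. In 10-month-old cortex Grin2c was at 0.27, Gabrg3 at -0.23 and Grm2 at 0.21 (Tg2576 minus WT, adjusted p from 0.431 to 0.484). In 10-month-old whole brain Grin1 was at -0.50, Grik2 at -0.40, Gabra4 at 0.33 and Gria1 at 0.31 (adjusted p = 0.431 for each). In 17-month-old whole brain Gabra6 was at -4.17, Grin3b at -0.53, Gabrg3 at 0.41 and Grin2a at 0.36 (adjusted p from 0.342 to 0.379). The Gabra6 difference went with the cerebellar genes, whose mean was -0.75, 0.03 and 0.79 in the 3 WT and -1.26, -2.06 and -0.98 in the 3 Tg2576 whole brains. It includes the Tg2576 reading of -7.10, which was not well above background. Over the alternatives and arrays left out, the Gabra6 difference lay between -5.33 and -2.34. Members not overlapping between the genotypes numbered 4, 3, 13 and 13, beside 17.2%, 16%, 17.6% and 22% of probes.

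**Figure D5:**
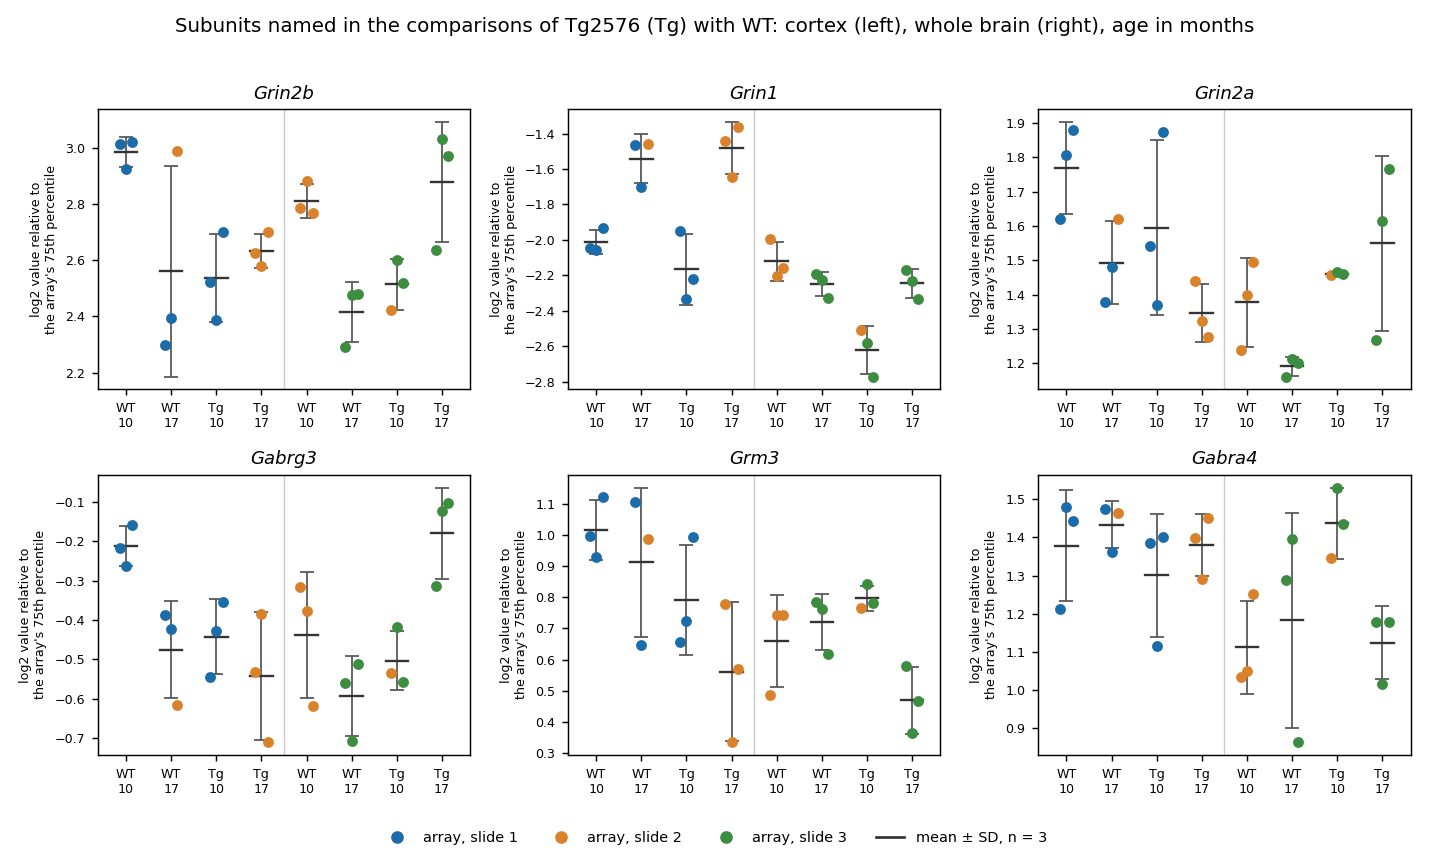
Level of 6 members on every array (vertical axes, log2 relative to the 75th percentile of the array) by group, with points coloured by slide, means and SDs of 3 arrays. Grin2b lies lower in Tg2576 than in WT mice at 10 months and higher at 17 months in whole brain, with differences of -0.30 and 0.46, neither of which passed the adjusted threshold.

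The genotype difference was tested for a change with age, and the tissue difference for a change with age and with genotype. No member was called in these 4 interaction tests, with 0%, 0%, 0.388% and 0% of probes called for genotype by age in cortex, genotype by age in whole brain, tissue by age and tissue by genotype. Members with an unadjusted p under 0.05 numbered 3, 12, 5 and 7, beside 9.41%, 16.8%, 15.6% and 9.48% of probes. The change of the Grin2b difference with age in whole brain was 0.76 ± 0.15 (SE, limma adjusted p = 0.189), and that of Grin1 was 0.50 ± 0.13 (adjusted p = 0.189). The tissue difference of Grin1 was larger at 17 than at 10 months by 0.45 ± 0.10, at adjusted p = 0.0547.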

How the data were processed

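The authors hybridised RNA of 24 samples to 1-colour Agilent mouse expression arrays and read them with Agilent Feature Extraction 10.7.3.1, per the file headers. The deposited intensity of a spot is background-subtracted by that software and not normalized between arrays. In a separate deposited table of log2 values, at least 99.8% of those on each array lay within 0.01 of the values computed here, and that table served as an alternative. The miRNA arrays were not used here.

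Each intensity was taken as log2 minus the 75th percentile of its array, outlier-flagged spots were left out and spots of a probe were averaged. Probes were named through their RefSeq transcripts, and the probe with the highest mean over 24 arrays stood for a gene. Fits used limma 3.58.1 in R 4.3.3 (lmFit and eBayes), on the 6 arrays of a comparison, the 12 of a tissue for genotype by age, or all 24 for comparisons that involve tissue. A probe was tested where at least 2 arrays of a group compared were well above background, and p-values were adjusted by Benjamini-Hochberg over all probes tested. The procedure was tested on simulated data. Precision is set by how few arrays there are.

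The receptor genes and all gene lists were chosen with earlier results of these data known. Named were the members past the threshold (up to 12 in each direction), or, where none passed, up to 5 with unadjusted p under 0.05 and no overlap, and up to 3 genes of a list. Values of second probes, of further members beside a called one and of the list genes repeated across comparisons were added after values were seen. So were 2 alternatives: all 24 arrays in 1 model with the slide as a block, and leaving out the 3 arrays of unusual cerebellar marker level. Promoters came from RefSeq for GRCm38.p6 and were matched by symbol for 30 of 45 members, while the array design used an older build, so that no probe coordinates are given. Values of some genes counted in the totals are not reported here.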

Additional observations from a re-analysis of the deposited data

Results flagged for a closer look

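For Grin2b, Grik1, Grm3 and Gabra3 all 3 Tg2576 samples lay on 1 side of the WT samples at 1 age or in 1 tissue, and on the other side at the other age of that tissue or in the other tissue at that age. The share of all probes with such a reversal was not counted. Genotypes did not overlap for 16%, 17.6% and 22% of probes in 17-month-old cortex and 10- and 17-month-old whole brain. Grin2b differed by -0.30 in 10-month-old and by 0.46 in 17-month-old whole brain (Tg2576 minus WT), and with age it differed by -0.40 in WT and by 0.36 in Tg2576 whole brain. Its second probe did not reverse between the genotypes, at 0.05 and 0.24, and was at -0.01 and 0.18 with age. The interaction of genotype and age did not pass the adjusted threshold for Grin2b (limma adjusted p = 0.189). Grik1 differed by 0.29 and -0.16 (adjusted p of the interaction = 0.192) and Grm3 by 0.14 and -0.25 (adjusted p of the interaction = 0.201) in 10- and 17-month-old whole brain. Gabra3 differed by -0.19 in 17-month-old cortex and by 0.21 in 17-month-old whole brain, and this difference between tissues at 17 months was not tested on its own. A second Gabra3 probe was at -0.11 and 0.38 in the same order, neither called.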

How the results depend on the processing

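The Tg2576 comparisons called 0 members under every alternative and with any array left out, while all probes called there numbered at most 81. Leaving out 1 array gave 12 to 16 members for tissue (14 in the full data), 0 for age in WT cortex (2), 10 to 15 in WT whole brain (17), 0 to 2 in Tg2576 cortex (6) and 0 to 6 in Tg2576 whole brain (11), and 0 to 1 for genotype by age in cortex and in whole brain and for tissue by age (0 each). All probes called in the age comparisons numbered 1802, 10479, 4025 and 4591 in the full data, 0 to 30, 5918 to 7866, 23 to 1360 and 42 to 2679 with 1 array left out, and 0 to 6052, 960 to 11763, 15 to 7456 and 13 to 10146 under the other alternatives.

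For tissue, the slide block left 0 members, also as 1 model of 24 arrays, and the 6 arrays of WT at 10 and 17 months and of Tg2576 at 10 and 17 months alone called 0, 3, 0 and 1. Grik2 turned to -0.20 and Grin3a to 0.14 with the slide block in both forms, Grik2 was at -0.0022 in WT at 10 months and Gabra4 at -0.14 in Tg2576 at 10 months. Gabra2 in WT whole brain with age turned to -0.20 in the model of 24 arrays with the slide block. Among the age comparisons, WT cortex called 1 with the array median, 9 with normexp and quantile normalization, 0 with no filter, 4 with the filter on all arrays, 5 with probes averaged, 0 with the slide block, 7 in 1 model of 24 arrays, 7 with the slide block added to it, and 0 by the methods' t-test. WT whole brain called 8 with no filter, 2 in the model of 24 arrays with the slide block and 11 by the methods' t-test. Tg2576 cortex called 14 with normexp, 0 with no filter, 11 in the model of 24 arrays, 1 with the slide block added and 1 by the methods' t-test. Tg2576 whole brain called 20 with normexp, 20 with probes averaged, 5 with the slide block, 17 in the model of 24 arrays, 5 by the methods' t-test and 0 without the 3 arrays of unusual cerebellar marker level, where all 11 differences kept their direction. Tissue by age called 1 with the filter on all arrays and 1 with probes averaged. The cause of these changes was not tested, apart from the fewer arrays of the settings that leave some out.

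With the replicate number as a block the age comparisons called 0, 9, 0 and 0 members in WT cortex, WT whole brain, Tg2576 cortex and Tg2576 whole brain. Deviations of samples with the same number correlated between -0.131 and 0.323, so that the numbers did not pair the samples. The slide block could not be fitted within the 6 arrays of WT whole brain and Tg2576 cortex for age, and it does not apply to the genotype comparisons in 10-month-old cortex and 17-month-old whole brain, each on 1 slide. In design, 3 samples against 3 limit every comparison within a tissue, and of the 45 probes 6 were not well above background on all arrays.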
